A study of Mus musculus with 20 samples.

Results

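Between days 7 and 8 and days 10 and 12 of reprogramming with NanogN70 and Oct4, 12595 of 335858 regions of open chromatin changed state, chosen by the presence or absence of a peak in each library. Mouse embryonic fibroblasts (MEFs) carrying the OG2 reporter, a GFP gene under the control of Oct4 sequences, were infected with pMXs retroviruses for NanogN70 and Oct4. NanogN70 is the pluripotency factor NANOG joined at its N terminus to a short stretch of the BAF subunit SS18 that interacts with BRG1. The companion path received unmodified Nanog with the same Oct4 virus, and day 0 followed the rounds of infection in both. Cells grew in iCD3 medium and were later moved to N2B27 with LIF and inhibitors of MEK and GSK3 (2iL), a step described for the end of the first week or another set day. Which libraries came before or after that step is not given in the sources used here. The medium and the day cannot be told apart. The references were MEFs (1 library) and ESCs in 2iL (3 libraries, labelled ESC in their titles and MEF in other fields). Each day of a path was 1 bulk library of an infected culture, so cells at different stages are averaged, and fewer cells with an open region cannot be told apart from less opening per cell.

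The comparison used 4 of the 20 libraries: days 7 and 8 as the early side and days 10 and 12 as the later side. Overlapping peaks from all 20 libraries made up 335858 regions. Open means that a library has a peak in the region, and closed that it has none. A gained region was closed on both early days and open on both later days, and a lost region was the reverse. This gave 3066 gained regions, which is 0.913% of all regions, and 9529 lost regions, which is 2.84%. These shares follow from the rule itself and carry no test. A further 26021 regions were open on all 4 days. The counts leaned on single libraries: the gained set would number 5562 regions without day 7, 11572 without day 10 and 5330 without day 12, and the lost set 31995 without day 8.

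Reprogramming turns a somatic cell back towards the state of an embryonic stem cell, and it needs both the closing of somatic enhancers and the opening of pluripotency enhancers. ATAC-seq reads this out, because the Tn5 transposase cuts and tags DNA where nucleosomes leave it open, and a pile of tags marks an open promoter or enhancer. In fibroblasts, many open enhancers carry AP-1, TEAD or RUNX motifs. Pluripotent enhancers are bound by OCT4, SOX2, NANOG, KLF and ESRRB proteins.

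The 4 libraries differed in how many peaks they held, and their read depth is unknown. There were 80881 peaks on day 7, 55339 on day 8, 44126 on day 10 and 54272 on day 12. At the regions open in every library of the series, the median tag pileup (the height of the peak in unscaled tags) was 38, 26, 28 and 41 on these days. The excess of lost over gained regions moved with the number of peaks, since with the 44126 best peaks of each library there were 4708 gained and 5113 lost regions. The libraries of MEFs and of NanogN70 on day 3 stood apart, with 29.0% and 23.3% of their open regions open in no other library, against 1.45 to 14.3% in the others. The references matched their titles: of 29 pluripotency genes such as Dppa5a and Tdgf1, 15 had a peak within 2 kb of a start in MEFs and 29 in each ESC library, and of 33 fibroblast matrix and cytoskeleton genes 33 did in MEFs and 24 to 28 in ESCs.

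To show what such regions look like, the bases within 50 bp of the summit (the highest point of the peak) are given for members with high scores in their state, read from the plus strand of GRCm38, the build called mm10. Capitals mark a match, on either strand, to one of the 17 motifs searched. The first 3 were gained, open in at least 2 ESC libraries and closed in MEFs. They lie 528 kb from the Marcks start (chr10:37667081-37667181), in an intron of Ctnna2 (chr6:77050773-77050873) and 217 kb from Mycn (chr12:12723243-12723343). The Ctnna2 sequence holds the SOX letters ACAATGG, the Marcks sequence an E-box and the Mycn sequence a GATA match.
Marcks: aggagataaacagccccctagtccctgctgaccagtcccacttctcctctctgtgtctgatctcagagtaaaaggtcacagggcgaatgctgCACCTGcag
Ctnna2: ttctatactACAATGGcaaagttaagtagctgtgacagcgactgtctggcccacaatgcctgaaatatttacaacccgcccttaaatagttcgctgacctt
Mycn: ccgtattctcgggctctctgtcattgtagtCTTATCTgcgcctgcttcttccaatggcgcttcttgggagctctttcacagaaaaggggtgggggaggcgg

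The gained region with the highest scores lies in an intron of Pax6 (chr2:105689980-105690080) and was closed in MEFs and in every ESC library. It was added to the sequences after its values were seen, and none of the 17 motifs matched in it.
Pax6: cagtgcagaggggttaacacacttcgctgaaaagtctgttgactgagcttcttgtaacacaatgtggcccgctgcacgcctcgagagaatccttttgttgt

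The last pair were lost, open in MEFs and closed in every ESC library, and lie in introns of Ext2 (chr2:93797527-93797627) and Pole4 (chr6:82640233-82640333). Neither holds any of the motifs.
Ext2: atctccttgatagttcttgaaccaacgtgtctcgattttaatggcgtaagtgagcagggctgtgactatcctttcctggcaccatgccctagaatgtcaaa
Pole4: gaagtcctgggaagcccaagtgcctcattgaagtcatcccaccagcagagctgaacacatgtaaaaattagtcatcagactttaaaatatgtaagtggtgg

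Most gained regions belonged to neither the starting cells nor the target cells. Of the 3066 gained regions, 1684 (54.9%, exact 95% binomial interval 53.1 to 56.7%) had no peak in MEFs or in any ESC library, against 38.7% of all regions and 5.11% of those open on all 4 days. ESC-only regions, open in at least 2 ESC libraries and closed in MEFs, made up 682 (22.2%, 20.8 to 23.8%), against 16.5% of all regions. The order of these shares turned with 2 settings: it was 14.0% of gained against 16.9% of all regions with 50% of a region covered, and 16.2% against 17.9% with a minimum score of 100. The excess of neither regions over all regions rested on day 7, since the share was 39.0% when day 7 was left out and 49.9 to 53.7% without each of the other days. A smaller part, 550 regions (17.9%), had a peak in MEFs, and 233 of these had none in ESCs. Intervals of this kind cover counting error only, since regions of the same libraries are not replicates.

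Lost regions too were most often open in neither reference. Of 9529 lost regions, 4431 (46.5%, 45.5 to 47.5%) were open in neither reference, 1935 (20.3%, 19.5 to 21.1%) were MEF-only, with a peak in MEFs but none in ESCs, and 1100 (11.5%) were ESC-only. The MEF-only share among all regions was 22.2%. The neither share of lost regions was 70.9% with equal numbers of peaks, where all regions had 52.2%, and 38.6 to 57.8% when 1 library was left out. In number, 1100 ESC-only regions closed at this step and 682 opened, but with equal numbers of peaks 455 closed and 1010 opened. Regions open on all 4 days were different in kind: 77.6% had a peak in MEFs and in all 3 ESC libraries.

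**Figure D1:**
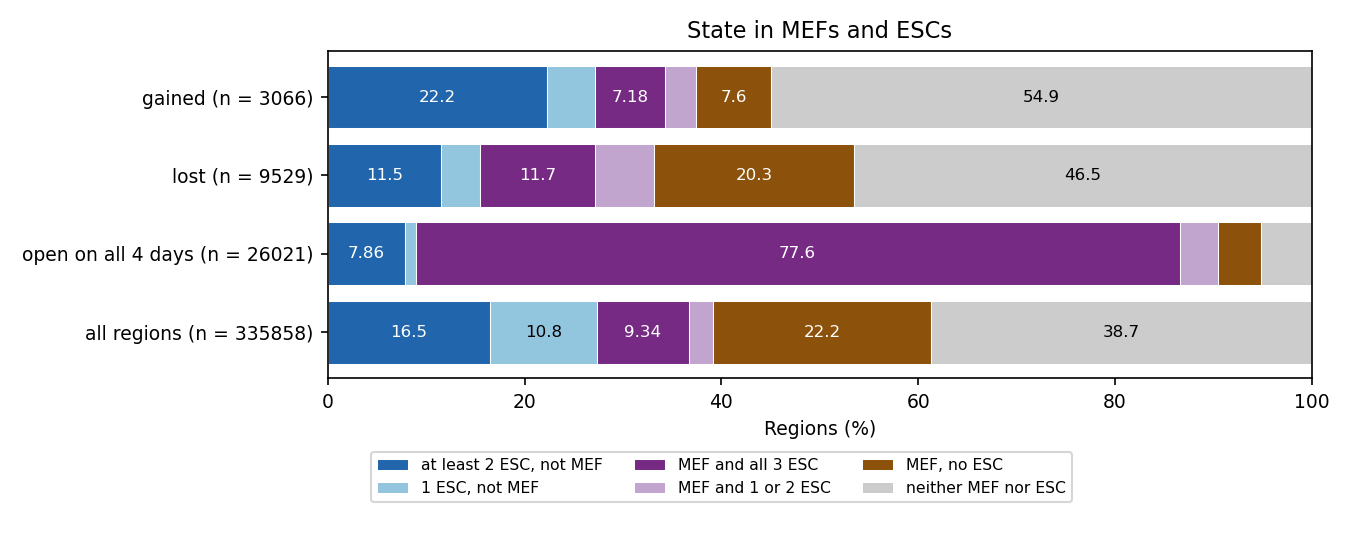
Horizontal bars give the percentage of gained, lost, constantly open and all regions in each of 6 states of MEFs (1 library) and ESCs (3 libraries). The grey part, open in neither, is 54.9% of gained and 46.5% of lost regions, and 5.11% of regions open on all 4 days.

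The same numbers can be read by starting from the state of a region. Of 6781 regions that were open on both early days and in neither reference, 65.3% were closed on both later days. This share was 50.6% of 3827 MEF-only regions, 26.3% of 4188 ESC-only regions and 4.77% of 23368 regions shared by MEFs and all ESC libraries. Of regions closed on both early days, 1.49% of 45861 ESC-only, 1.60% of 105148 neither and 0.352% of 66243 MEF-only regions were open on both later days. In the Nanog path, the share closing was 56.5% for regions open in neither reference, 31.9% for MEF-only and 42.7% for ESC-only regions.

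Over all regions of a state, the share open in the NanogN70 path on days 7, 8, 10 and 12 was 9.19, 7.15, 3.07 and 4.17% for the 74608 MEF-only regions. Both later days lay below both early days, a difference of -4.55 percentage points, where all regions had 20.9, 14.2, 11.33 and 14.4%. The difference was -2.15 points with 50% of a region covered by the peak, and -35.2 points with regions built from the 4 libraries alone, which leaves out regions closed in all 4. For the 55446 ESC-only regions the shares were 15.4, 9.43, 8.16 and 14.2%, so the sides overlapped, and the difference of -1.24 points became 1.75 without day 7, 1.78 without day 10 and 5.57 with equal numbers of peaks. The 31355 regions shared by MEFs and ESCs were open at 85.3, 77.2, 73.2 and 77.6%, and the sides overlapped here too. The two-sided exact permutation test over the days gave p = 0.333 for MEF-only and 0.667 for ESC-only and shared regions (adjusted 0.556, 0.667 and 0.667 over 5 tests). With 2 libraries a side, 0.333 is the smallest p the test can give, so no difference could pass the threshold.

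The Nanog path and the earlier days were not used by the rule. Of the gained regions 4.96, 4.83, 5.61, 10.3, 13.4, 12.2 and 14.7% had a peak with Nanog on days 0, 1, 3, 5, 7, 8 and 10. Over all regions these shares were 17.7, 16.1, 14.7, 22.0, 21.3, 19.5 and 12.45%. Gained regions are closed on NanogN70 days 7 and 8 by the rule, which favours shares below those of all regions. Of the 259196 regions closed on those days, 66.7% were closed in all 8 Nanog libraries, against 32.2% of gained regions. Open on both days 10 and 12 with Nanog were 0.811% of that background and 11.8% of gained regions. On day 12 with Nanog, 58.3% of gained and 12.23% of all regions had a peak. This last library stood apart from the other 7 of its path. Days 10 and 12 lay above days 7 and 8 by 23.7 points (exact permutation p = 0.333, adjusted 0.556), and by 1.91 points without Nanog day 12, by 45.5 without Nanog day 10. The share on Nanog day 12 was 29.1% when regions were chosen without NanogN70 day 10 and 39.2% without NanogN70 day 12, and the difference was then 7.82 and 11.8 points, and 11.5 without NanogN70 day 7.

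The Nanog day 12 library shared the gained states unequally. Of the 1684 gained regions open in neither reference 67.9% had a peak on day 12 with Nanog and 11.5% on day 10, against 34.6% and 8.50% of the 682 ESC-only and 59.1% and 32.9% of the 550 gained regions open in MEFs. Closed in all 8 Nanog libraries were 54.8% of the ESC-only gained regions, against 82.7% of all ESC-only regions, and 29.2% of the neither gained regions, against 51.4% of all neither regions. In the NanogN70 path before day 7, 82.3% of gained regions were closed on days 0, 1, 3 and 5, and 87.0% on days 0, 1 and 5, leaving out the day 3 library. Of all regions 51.2% and 59.5% were, and of the 259196 regions closed on days 7 and 8, which the gained regions are by the rule, 60.4% and 70.05% were. A group of 472 gained regions, 15.4%, was open in no library but NanogN70 days 10 and 12.

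**Figure D2:**
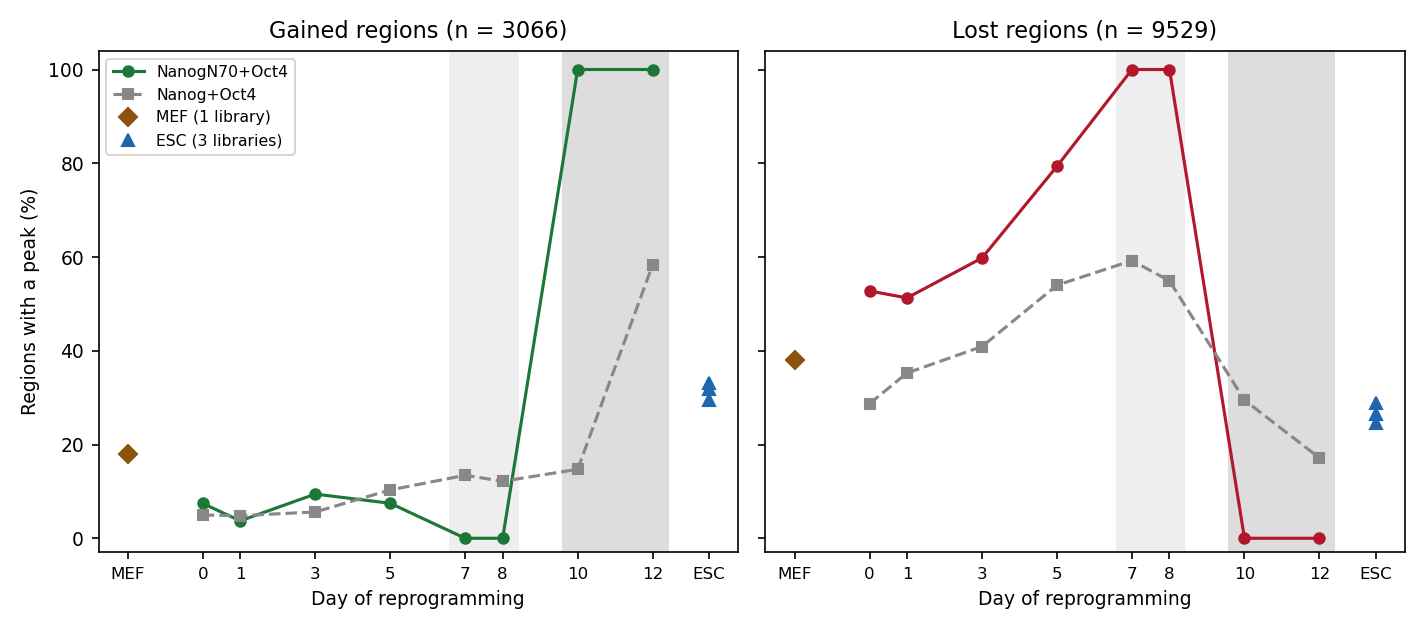
The percentage of the 3066 gained (left) and 9529 lost (right) regions with a peak is plotted against the day, with NanogN70+Oct4 in colour, Nanog+Oct4 in grey, MEFs at the left and the 3 ESC libraries at the right; shading marks the early and later days. The values of 0 and 100% inside the shading with NanogN70 are set by the rule, and Nanog reaches 58.3% of gained regions on day 12 and at most 14.7% before.

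Lost regions were more often open on day 5 than on days 0 to 3. With NanogN70, 52.8, 51.3, 59.8 and 79.4% of them had a peak on days 0, 1, 3 and 5, where all regions had 28.3, 19.9, 22.8 and 21.3%. Lost regions are open on days 7 and 8 by the rule, which favours shares above those of all regions. Of the 41125 regions open on those days, 55.8% were open on all of days 0, 1, 3 and 5. Only 33.3% of lost regions were, so against this background they were less often open earlier. Closed on all of days 0, 1, 3 and 5 were 7.19% of that background and 10.9% of lost regions. With Nanog the share of lost regions with a peak went from 28.7% on day 0 to 59.2% on day 7 and 54.9% on day 8, and was 29.5% on day 10 and 17.1% on day 12. Both later days lay below both early days with Nanog, by -33.8 points (exact permutation p = 0.333, adjusted 0.556), and by -20.3 points with equal numbers of peaks. Over all regions the share open with Nanog was also lower later, with 21.3, 19.5, 12.45 and 12.23% on days 7, 8, 10 and 12. In MEFs 38.0% of lost regions were open, and in ESCs 26.6% ± 2.2 (SD, n = 3), close to the shares over all regions of 34.0% in MEFs and 28.9, 31.6 and 25.8% in the ESC libraries. The shares of the lost regions open in neither reference were 42.6, 49.8, 59.3 and 85.3% on days 0 to 5 with NanogN70. MEF-only lost regions began at 83.3% on day 0, and 54.1% of them were open on all of days 0, 1, 3 and 5, near the 50.8% of all 3827 MEF-only regions open on days 7 and 8. With Nanog, 29.8% of these MEF-only regions were still open on day 12, compared with 8.82% of lost regions open in neither reference.

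The rule applied to the Nanog path gave 1165 gained (0.347% of all regions) and 11868 lost regions (3.53%). Of the NanogN70 gained regions 195 (6.36%) were gained there too, which is 16.7% of the Nanog set. Among all regions closed on NanogN70 days 7 and 8, 0.134% were. Of the NanogN70 lost regions 1667 (17.5%) were lost there too, 14.0% of the Nanog set. Among all regions open on NanogN70 days 7 and 8, 7.29% were. In the opposite direction, 55 of the NanogN70 gained regions (1.79%, 1.35 to 2.33%) were lost with Nanog. This was near the 2.07% of regions closed on NanogN70 days 7 and 8, while all regions had 3.53%. Of the NanogN70 lost regions 12 (0.126%) were gained with Nanog, beside 1.26% of regions open on NanogN70 days 7 and 8 and 0.347% of all regions.

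Members had lower scores than the constantly open regions. The rule favours this order, since a member must lack a peak on the early or the later side. The MACS score is -10 times the log10 of a peak's p, and the lowest score in the files is 50. The median score of gained regions was 74.7 on day 10 and 137 on day 12, and of lost regions 130 on day 7 and 78.9 on day 8, where regions open on all 4 days had medians of 237 to 409. The lower of the pair of scores was under 60 in 993 gained and 2601 lost regions, just inside the threshold. Just outside were 2264 regions closed early and open on day 10 alone of the later days, with a median score of 57.6, and 8506 open on day 12 alone, with a median of 67.7. For the lost set these were 22466 open on day 7 alone (median 73.0) and 4561 on day 8 alone (62.5).

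Gained and lost regions were mostly distal. A promoter region, here within 2 kb of any annotated transcript start, was found in 18.2% (16.8 to 19.6%) of 3063 gained regions on assembled chromosomes and in 15.7% of 9526 lost regions. All regions had 18.7%, and regions open on all 4 days 59.0%. Introns held 42.6% of gained and 45.4% of lost regions, exons 3.07 and 3.55%, and intergenic sequence 36.1 and 35.4%. ESC-only gained regions were at promoters in 23.2% of cases and neither gained regions in 13.2%. The neither gained regions were also farther out, with a median of 34.0 kb to the nearest protein-coding start, against 17.0 kb for ESC-only gained and 21.5 kb for all regions. The X chromosome held 1.70% of gained, 0.997% of lost and 2.20% of all regions.

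The ESC-only part of the gained set had the larger share of repeat sequence. Bases masked as repeats in the reference made up 19.0% of the ESC-only gained regions, 9.64% of the neither gained regions and 14.4% of all regions. GC content was 50.6% in gained, 47.5% in lost and 49.7% in all regions. The median length was 392, 462 and 247 bp.

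The 16 gained regions named were those with the highest scores within their state, 8 ESC-only, 4 open in MEFs and 4 open in neither. They lay over 2 kb from a protein-coding start with 1 exception, in Pax6, and all were open with Nanog on day 12. The Pax6 region (chr2:105689438-105690664, 1.82 kb from a start) had the highest lower score of the gained set. Pax6 encodes a paired-box factor of the eye and the neural tube. Its pileup was 23 and 52 tags on days 10 and 12 with NanogN70, 14 and 23 with Nanog, and no other library had a peak. The other neither regions at the top were at chr13:84514905-84515544 (264 kb from Tmem161b), in an intron of Fto (chr8:91514718-91515404) and at chr8:34363439-34364080 (205 kb from Saraf). They had pileups of 16 to 20 on day 10 and 33 to 35 on day 12 with NanogN70, and 12 to 18 on day 12 with Nanog.

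Among the 8 ESC-only regions at the top, the pileups with NanogN70 on day 12 (12 to 50 tags) were above those of ESCs in all but the Zfp804a region. The regions were chosen for their high NanogN70 scores on these days, which favours this order, and nothing is read from it. These are unscaled tags, and at regions open in every library the medians were 41 on day 12 and 29 to 38 in ESCs. The Marcks region (chr10:37666908-37667631) had 24 and 38 tags on days 10 and 12, and 11, 6 and no peak in the ESC libraries. In the Ctnna2 intron (chr6:77050577-77051109), a gene of a neuronal catenin, the pileups were 20 and 31 on days 10 and 12 and 11, 18 and 10 in ESCs. The region 217 kb from Mycn (chr12:12722734-12723741), a MYC-family gene of stem and progenitor cells, had 19 and 26, and 6, 9 and 5 in ESCs. The Zfp804a region (chr2:81848683-81849248) was the reverse, with 12 and 16 on the later days and 43, 58 and 44 in ESCs. The other 4 lay near or in Vwc2, Itga1, Spred2 and Sparcl1. The gained regions open in MEFs at the top lay in Itpr2 and E130114P18Rik and nearest to Crbn and Foxk1. The Itpr2 region (chr6:146110402-146111861) had 14 tags in MEFs, 11 and 7 on days 0 and 1, no peak on days 3 to 8, and 14 and 47 on days 10 and 12.

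**Figure D3:**
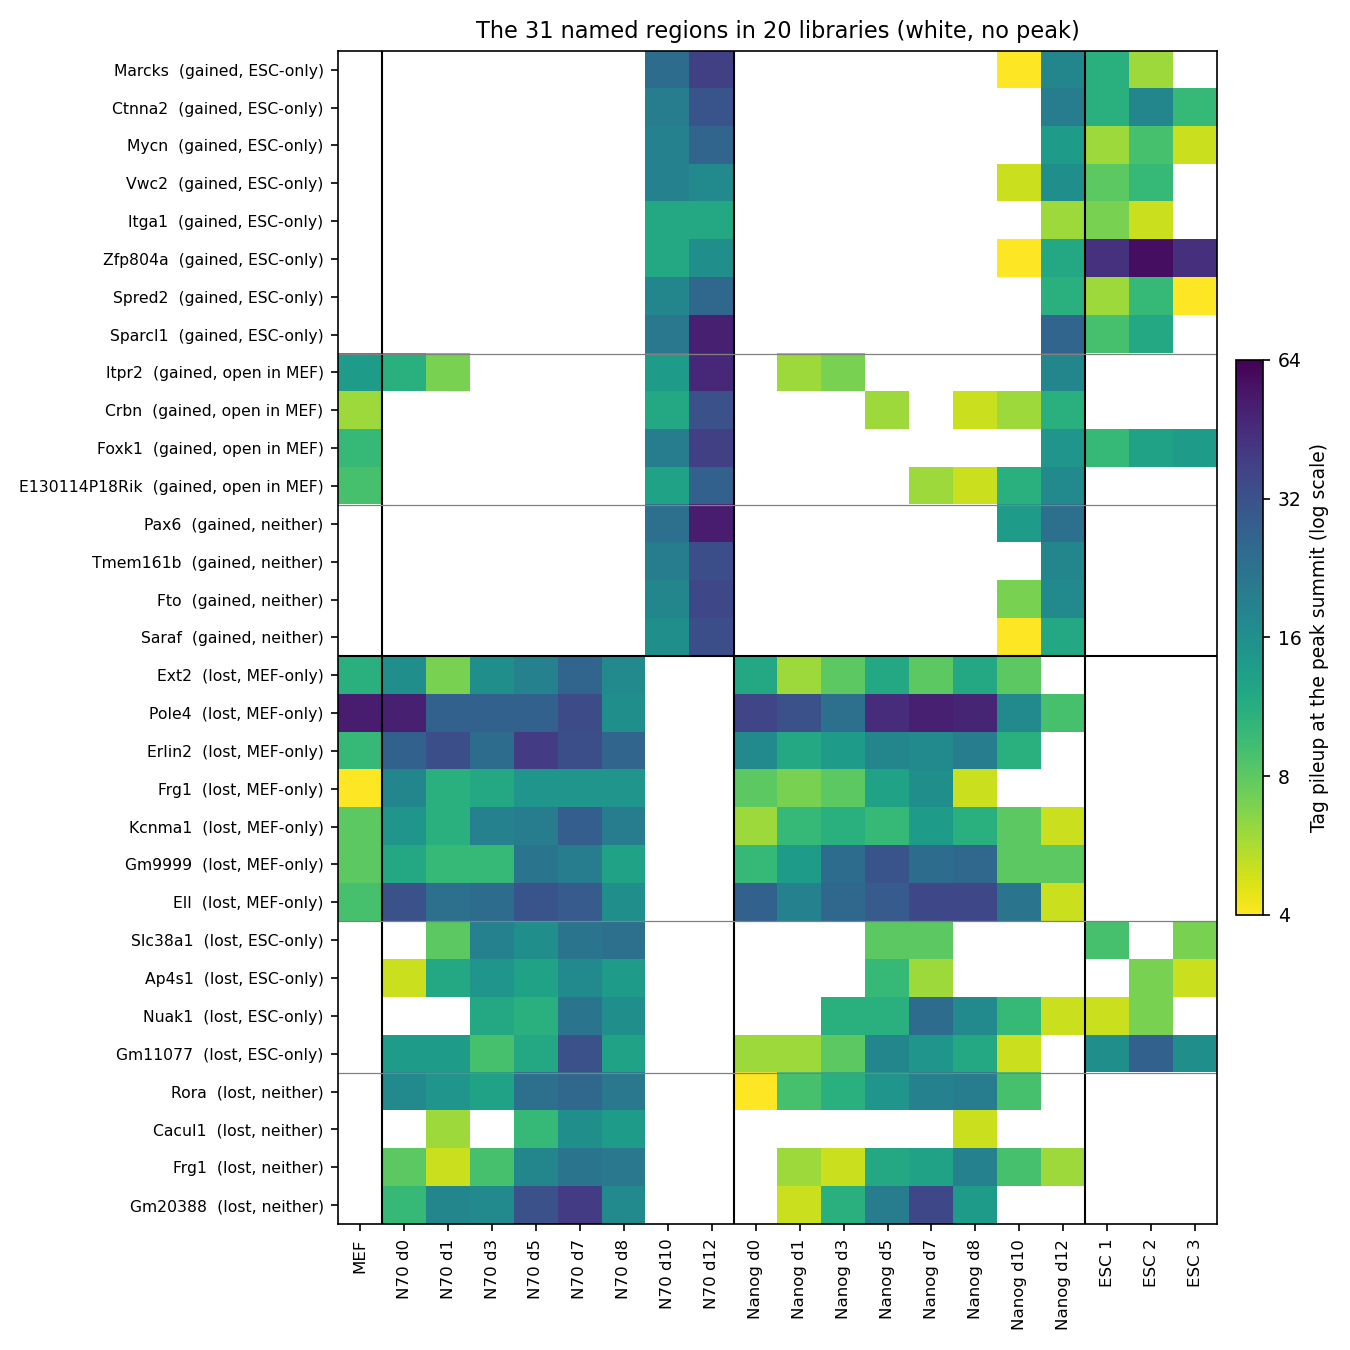
Rows are 16 gained and 15 lost regions among those with the highest scores in their state, named by the gene they lie in or the nearest start, and columns are the 20 libraries; colour gives the tag pileup at the summit on a log scale and white means no peak. All 16 gained regions have a peak with Nanog on day 12, and the 7 lost MEF-only regions have one on every day from 0 to 8 in both paths.

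The 7 lost MEF-only regions shown from the top of that state lay in introns or untranslated parts of Ext2, Pole4, Erlin2, Kcnma1, Gm9999 and Ell, and 441 kb from Frg1. All 7 had a peak in every library of both paths from day 0 to day 8. The Pole4 region (chr6:82639793-82640738) had 52 tags in MEFs and 50, 27, 27, 27, 34 and 16 on days 0, 1, 3, 5, 7 and 8 with NanogN70. The lost regions open in neither reference were led by an intron of Rora (chr9:68922977-68923695), a gene of a nuclear receptor. There the pileup with NanogN70 was 17, 15, 13, 23, 25 and 21 from day 0 to day 8, and Nanog had 19 and 20 tags on days 7 and 8, 9 on day 10 and no peak on day 12. The others were near Cacul1 and Frg1 and in Gm20388. Lost ESC-only regions at the top lay near Slc38a1 and Nuak1 and in Ap4s1 and Gm11077. The Gm11077 region (chr6:140730762-140731766) had 16, 27 and 16 tags in ESCs and 32 and 13 on days 7 and 8.

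Some genes had several gained regions. Counting each region for the protein-coding gene with the nearest start within 100 kb, Zic4 had 8 gained regions of 28 in all, all 8 of them open with Nanog on day 12. Zic4 and its neighbour Zic1 encode zinc-finger factors of the dorsal neural tube. Prdm16 had 6 of 76. Among the 8 genes with 5 each were Foxb1 (5 of 40) and Olig3 (5 of 30), transcription factor genes of the early nervous system, the axon guidance receptor gene Ephb2 (5 of 59), Apba2 (5 of 48) and Nrxn3 (5 of 72), the last a synaptic gene of 1612 kb. The others were Nav2, Nckap5 and Snd1. Of these 10 genes Zic4, Ephb2, Apba2 and Olig3 had no lost region, while Nav2 had 9, Snd1 5, Prdm16 4, Nrxn3 3 and Foxb1 and Nckap5 1 each. The genes with most lost regions were large: Kcnma1 had 15 of 92 over 725 kb, Rbfox1 12 of 136 over 1526 kb, and Bach2, Chn2, Grik4 and Psd3, of 262 to 523 kb, had 10 each.

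Of the 17 gene lists, the neural list stood farthest from its share of all regions. Its 26 genes, regulators and markers of neural progenitors, were nearest to 31 of 3063 gained regions (1.01%, 0.689 to 1.43%), to 6 of 9526 lost regions (0.0630%) and to 0.136% of all regions. Peaks at Foxb1 and Olig3 were known from an earlier account of these data, and without both the shares were 0.686% of gained and 0.115% of all regions. The gained share was 0.554% when regions were chosen without NanogN70 day 10. Gained regions fell beside 15 of the 26 genes. Besides Foxb1 and Olig3, these included 2 each for Sox11, Pax3, Pax6, Pax7, Olig1 and Lhx2, and 1 each for Sox1, Sox21, Pou3f1, En2, Dll1 and Hes5. Neurog1, Neurog2 and Neurod1, later neurogenic regulators, had none.

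At starts, 5 of the 26 neural genes (19.2%) had a gained region within 2 kb and none had a lost one, where 1.87% of 21924 protein-coding genes had a gained and 4.54% a lost region. These were Pax6, Olig3, Pax3, Zic1 and Dll1, the last a Notch ligand gene. The Pax3 region (chr1:78197618-78198645) had 15 and 42 tags on days 10 and 12 with NanogN70 and 30 on day 12 with Nanog. At Zic1, in an intron of Zic4, whose start is nearest (chr9:91366927-91367785), these were 13, 27 and 13, and at Dll1 (chr17:15371852-15372513) 14, 26 and 16. The Olig3 region (chr10:19356130-19356480) had 12 and 10 tags with NanogN70, no peak with Nanog, and 11 and 8 in ESC libraries 1 and 2. Pax6, Pax3, Zic1 and Dll1 had no peak at these regions in MEFs or ESCs. Any peak within 2 kb of a start was present for 23, 23, 26 and 26 of the neural genes on days 7, 8, 10 and 12 with NanogN70, for 20, 18, 22 and 25 with Nanog, for 20 in MEFs and for 25, 26 and 26 in ESCs.

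Pluripotency genes came next. The 27 pluripotency factors and cofactors were nearest to 17 gained regions (0.555%, 0.324 to 0.887%), beside 0.229% of all regions and 0.115% of lost regions. Sox2, the partner of OCT4 on DNA, and Gbx2 had 3 gained regions each, and Klf2, a naive pluripotency factor gene, and Jarid2 had 2 each. Both regions near Klf2 and 1 of those near Sox2 were ESC-only. No start of the 27 genes had a gained or a lost region within 2 kb, and a peak was already there for 23 and 21 of them on days 7 and 8, then 22 and 25.

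The 29 other pluripotency genes took 0.196% of gained (0.0719 to 0.426%), 0.0945% of lost (0.0432 to 0.179%) and 0.0849% of all regions. Both intervals included the share of all regions. At a start, 4 of the 29 genes (13.8%) had a gained region and 3 (10.3%) a lost one, beside 1.87% and 4.54% of protein-coding genes. Fgf4 (chr7:144860876-144861586), the growth factor gene of the inner cell mass, had 7 and 18 tags on days 10 and 12 with NanogN70, no peak in MEFs or with Nanog, and 33, 51 and 31 in ESCs. Tdh (chr14:63499979-63500872), which encodes threonine dehydrogenase of mouse ESC metabolism, had 6 and 11 with NanogN70, 5 on day 12 with Nanog, and 39, 39 and 40 in ESCs. L1td1 (chr4:98726314-98726980) had 8 and 10, 5 on day 12 with Nanog, and 31, 37 and 23 in ESCs. These ESC-only starts had lower pileups on days 10 and 12 than in any ESC library. At Lin28a (chr4:134019228-134019650), an RNA-binding factor gene, the pileup was 16 on both later days, with no peak with Nanog, and 10 in 1 ESC library. Lost at starts were Tdgf1, Dnmt3l and Tet1. The Tdgf1 region (chr9:110944898-110945626) was open in neither reference, with 21, 16, 19, 20, 28 and 10 tags from day 0 to day 8 with NanogN70, and 4, 9, 10 and 5 on days 0, 5, 7 and 8 with Nanog. A start peak was present for 20, 22, 21 and 25 of the 29 genes on days 7, 8, 10 and 12 with NanogN70, against 21, 15, 12 and 12 with Nanog.

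**Figure D4:**
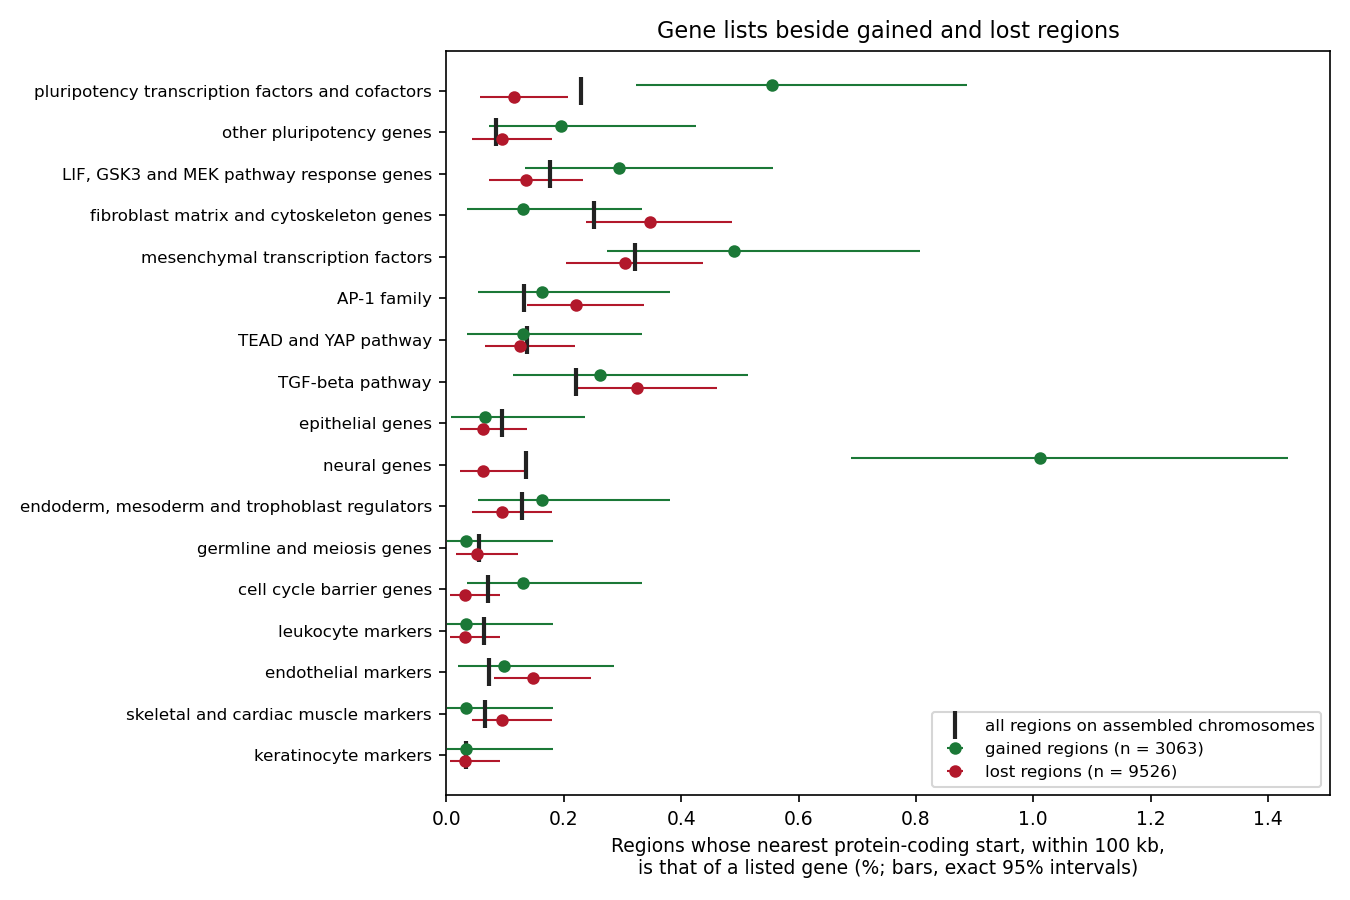
For each of the 17 lists, points give the percentage of gained (green, n = 3063) and lost (red, n = 9526) regions whose nearest protein-coding start within 100 kb is that of a listed gene, with exact 95% binomial intervals, and black ticks give the percentage over all regions. The gained point of the neural list is at 1.01% with its tick at 0.136%, and that of the pluripotency factors at 0.555% with its tick at 0.229%.

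Fibroblast matrix and cytoskeleton genes were near their background in both sets. The 33 matrix and cytoskeleton genes were nearest to 33 lost regions (0.346%, 0.239 to 0.486%) and 4 gained ones (0.131%, 0.0356 to 0.334%), and both intervals included the 0.252% of all regions. A lost region was nearest to 21 of the 33 genes. Postn, a matrix protein gene, had 6, Timp3, a protease inhibitor gene, had 4, and the collagen genes Col1a2, Col6a2 and Col6a3 had 2 each. At starts, Dcn (decorin) had a lost region and Vim (vimentin) a gained one 1.24 kb away. The Vim region (chr2:13572053-13572686) was ESC-only, with 19 and 42 tags on days 10 and 12, 23 on day 12 with Nanog, and 13, 18 and 21 in ESCs. The Dcn region (chr10:97479260-97479770) had 21 tags in MEFs, 15, 8, 9, 7, 11 and 10 from day 0 to day 8 with NanogN70, and with Nanog it had a peak on days 0, 1 and 8.

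Mesenchymal transcription factors (0.490% of gained, 0.304% of lost and 0.321% of all regions) went both ways, with 4 gained starts (Nfix, Snai1, Alx1 and Zeb1) and 4 lost ones (Osr1, Cux1, Hand2 and Twist2) of 32. Each was 12.5% of the list, where 1.87% of protein-coding genes had a gained and 4.54% a lost start. The same backgrounds apply to the start counts of every other list. Snai1 and Zeb1 encode repressors of epithelial genes. The Nfix region (chr8:84712008-84712776) had 47 tags in MEFs, no peak with NanogN70 until 15 and 40 on days 10 and 12, and 13, 14 and 21 on days 8, 10 and 12 with Nanog. Osr1 (chr12:9574230-9574914) had 26 tags in MEFs, 17 and 9 on days 7 and 8, and 22 and 7 on days 10 and 12 with Nanog. In the TGF-beta list of 19 genes, a pathway that holds back reprogramming, 31 lost regions (0.325%) and 8 gained ones (0.261%) stood beside 0.220% of all regions, and lost starts were those of Ltbp1, Smad4 and Acvr1, the gained one that of Smad3. AP-1 family genes took 0.220% of lost and 0.133% of all regions, 10 of their 21 lost regions beside Bach2, and Batf2 had a lost start. Epithelial genes had 1 gained start, Grhl2 (chr15:37317819-37318537, 8 and 18 tags, and 6 and 7 on the same days with Nanog), and 3 lost ones, Rab25, Cldn7 and Ovol1, the first in the untranslated part of the neighbouring Mex3a. The list took 0.0653% of gained, 0.0630% of lost and 0.0953% of all regions. Of the LIF, GSK3 and MEK response genes (0.294, 0.136 and 0.176%), Dusp6, a target of MEK and ERK signalling, had a gained start (chr10:99265309-99265742) with 14 and 19 tags, no peak with Nanog, and 23, 27 and 21 in ESCs. Of the 12 cell cycle genes (0.131, 0.0315 and 0.0715%), Ccnd1 (cyclin D1) had a gained start.

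Markers of cell types other than these had few members. The shares of gained and lost regions were 0.0326 and 0.0315% for leukocyte genes, 0.0979 and 0.147% for endothelial, 0.0326 and 0.0945% for muscle and 0.0326 and 0.0315% for keratinocyte genes, and the shares of all regions were 0.0643, 0.0727, 0.0652 and 0.0342%. The interval of the lost endothelial share, 0.0804 to 0.246%, lay above its share of all regions. Lost regions lay at the starts of Csf1r, Tek, Erg and Des, and no marker start had a gained region. Of 16 leukocyte genes, 3 to 5 had a start peak on the 4 days. On day 3 with NanogN70, 13 of them had one, against 3 to 6 in the other libraries of both paths, and the reason was not tested. For endoderm, mesoderm and trophoblast regulators (0.163 and 0.0945%, all regions 0.130%), germline genes (0.0326 and 0.0525%, all 0.0563%, with a lost start at Tdrd6) and TEAD and YAP genes (0.131 and 0.126%, all 0.138%), the intervals of both sets included the share of all regions.

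Motifs were searched as plain letters on both strands within 25 bp of the summit. The SOX letters ACAATGG were held by 2.06% (1.58 to 2.62%) of gained, 0.882% (0.704 to 1.09%) of lost and 0.896% of all regions. Within 100 bp of the summit these were 9.14, 3.30 and 3.50%. With ACAANGG within 25 bp, letters chosen after these values were seen, they were 6.69, 2.77 and 2.95%. Among gained regions the share with ACAATGG within 25 bp was 2.50% for ESC-only, 2.20% for neither and 0.909% for those open in MEFs. RFX letters (GTTGCCATG) were at 0.849% (0.555 to 1.24%) of gained, 0.157% of lost and 0.166% of all regions, and TFAP2 letters (GCCNNNGGC) at 3.20, 1.71 and 1.83%. In regions open on all 4 days the SOX, RFX and TFAP2 shares were 0.823, 0.411 and 4.65%.

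AP-1 letters (TGANTCA) were at 1.04% (0.716 to 1.47%) of gained, 4.84% (4.42 to 5.29%) of lost and 6.12% of all regions. TEAD letters (GGAATG) were at 2.71, 3.74 and 4.48%, and RUNX letters (TGTGGTT) at 0.816, 1.39 and 1.87%. The low gained shares were not particular to that set, since regions open on all 4 days held AP-1, TEAD and RUNX letters at 1.45, 2.19 and 0.680%. In the lost set AP-1 letters went with the MEF state: 11.1% (9.74 to 12.6%) of MEF-only lost regions held them, 3.09% of neither lost regions and 22 of 1100 ESC-only lost regions. Within 100 bp of the summit the MEF-only lost share was 34.5%, against 17.3% of all regions.

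ESC-only gained regions held the KLF letters GGGNGTGG at 5.29% (3.73 to 7.24%) and the E-box CAGGTG at 7.20% (5.37 to 9.40%), where all regions had 2.63 and 3.48% and neither gained regions 1.66 and 3.09%. The octamer ATGCAAAT was at 0.424% of gained, 1.09% (0.893 to 1.32%) of lost and 0.665% of all regions, and at 1.44% of neither lost regions. TCF/LEF letters (ATCAAAG) gave 0.424, 1.09 and 0.714%, and STAT letters (TTCCNGGAA) 0.0326, 0.378 and 0.198%. CTCF letters (AGNGGGCGC) were at 0.849% of gained regions and 0.355% of all regions, with 2.91% among gained regions open in MEFs and 1.25% among regions open on all 4 days. Mean GC within 25 bp was 53.7% around gained summits, 50.9% around lost ones and 50.4% over all regions, and its part in the motif shares was not tested. The SOX-OCT (TTGTNATGC, which shares bases with the SOX and octamer letters), ESRR (TCAAGGTCA), GRHL (AACCNGGTT), ETS (CCGGAAG) and GATA-factor (AGATAAG) letters were each found in at most 0.261% of gained and 0.399% of lost regions. Within 100 bp of the summit the SOX-OCT letters were at 3.08% (1.92 to 4.68%) of ESC-only gained, 1.91% (1.19 to 2.90%) of ESC-only lost and 0.937% of all regions. A match describes the letters at a summit and is not a binding site.

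**Figure D5:**
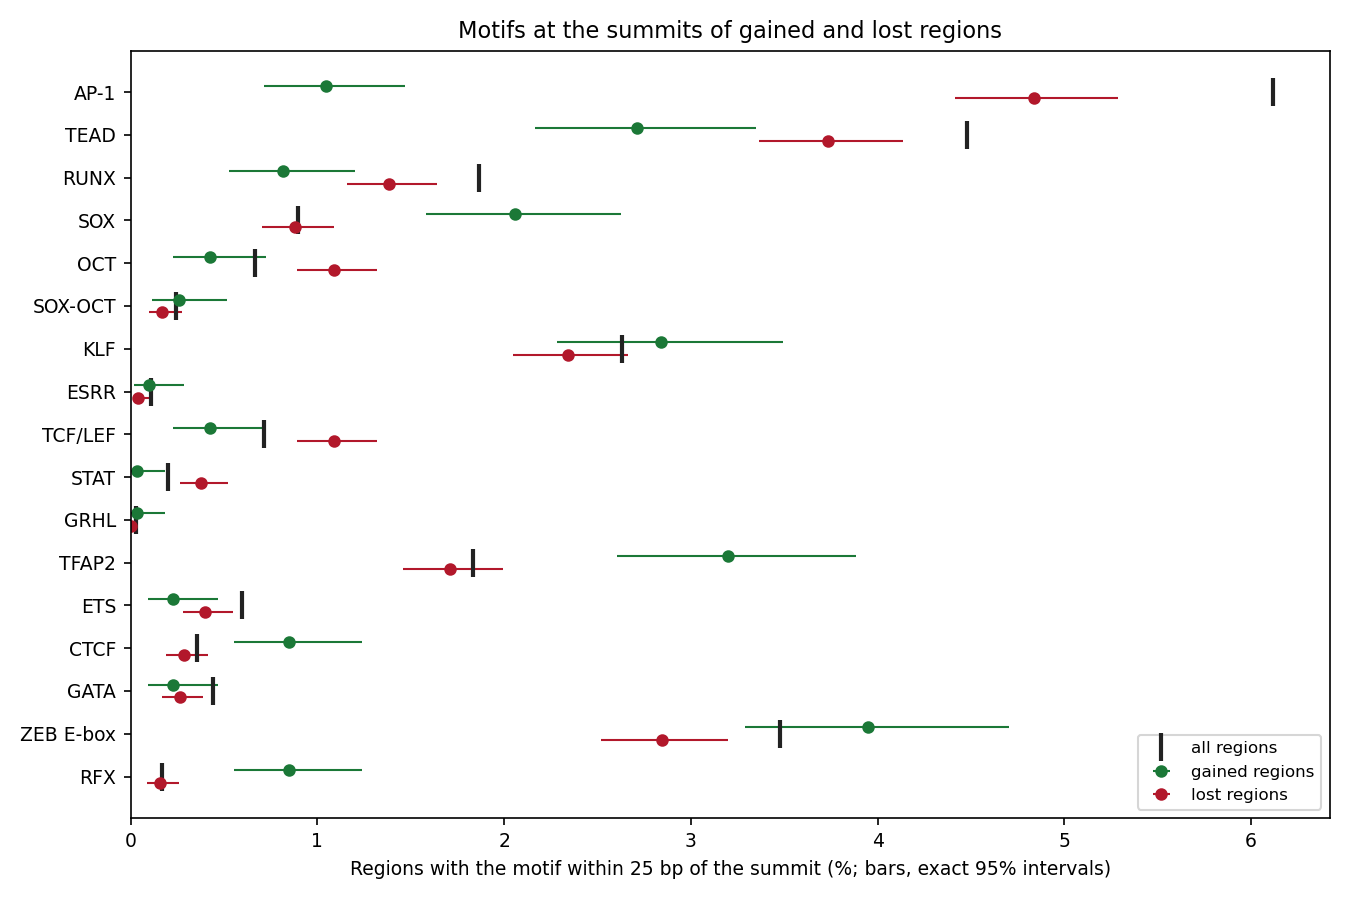
Points give the percentage of gained (green) and lost (red) regions with each motif within 25 bp of the summit, with exact 95% binomial intervals, and black ticks the percentage over all regions. The SOX, RFX, TFAP2 and CTCF points of the gained set lie to the right of their ticks, and the AP-1, TEAD and RUNX points of both sets to the left.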

How the data were processed

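ATAC-seq peak lists of 20 mouse libraries were used. Per the submitters' processing notes, reads were processed with Trim Galore 0.6.4, Bowtie2 2.4.5 (mm10), SAMtools 1.16.1 and MACS 1.4.2. The authors removed repetitive, low-quality and mitochondrial reads and called peaks in each library. The deposited peak score is -10 log10 of the MACS p (lowest 50), and the deposited summit signal is the tag pileup, not scaled to depth. Read depth is unknown, so no floor is given.

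Peaks overlapping by at least 1 bp were merged and read as open or closed per library (Python 3.11.15, NumPy 2.4.6, SciPy 1.17.1, Matplotlib 3.10.9). The last peak of all 21 chromosomes lay inside GRCm38.p6, whose sequence and GENCODE M21 genes were used. Of 12595 members, 3 gained and 3 lost regions on other sequences were left out of place, gene and motif counts. Shares have exact 95% binomial (Clopper-Pearson) intervals. Each day is 1 library, so differences between sides were tested by the two-sided exact permutation over days, with Benjamini-Hochberg adjustment over 5 tests. Set recovery was tested on simulated data. Alternatives changed the score, peak number, overlap, regions, states and libraries.

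Named regions were the highest by the lower of both scores: 8 ESC-only (gained) or MEF-only (lost), then 4 of each of 2 other states, with the 5 genes holding most members of each set, ties included, and list genes with a member within 2 kb of a start. A few items under these rules are not reported here. Other list genes beside members were named after their counts were seen. The members, lists and rules were chosen with earlier results of these data known.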

Additional observations from a re-analysis of the deposited data

How the results depend on the processing

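Each day is 1 library, so calls rest on single libraries and weak peaks near the lowest score, and read depth is unknown. Of 153 alternative values over 18 results, 95 stayed within their limit (1.5 times for a count, the binomial interval for a share, the direction for a difference), 55 moved further and 3 reversed; the cause was not tested. Those for SOX letters, motif windows, neither, neural and Nanog day 12 shares were chosen after seeing the data.

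With a minimum score of 100 there were 1875 gained and 5021 lost regions, and the ESC-only share of gained was 16.2%, the neither share of gained 63.0%, the promoter share 20.7% of gained and 18.2% of lost. With equal numbers of peaks there were 4708 gained and 5113 lost regions, the neither share was 66.7% of gained and 70.9% of lost, the MEF-only share of lost 13.9%, the promoter share of gained 22.0%, and the ESC-only difference in the NanogN70 path reversed to 5.57 points. With 50% of a region covered there were 6209 lost regions, the ESC-only share of gained was 14.0%, the MEF-only share of lost 13.7%, the neither share 63.3% of gained and 52.6% of lost, the promoter share 23.9% of gained and 19.6% of lost. With ESC-only meaning open in all 3 ESC libraries and MEF-only allowing 1 of them, ESC-only was 18.9% of gained and MEF-only 23.3% of lost. Promoter shares were 20.03 and 16.71% with regions of the 4 libraries alone and 13.6 and 10.7% within 1 kb, and that of gained was 16.5% with closed meaning no peak within 500 bp.

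Without 1 library, gained regions numbered 4052 to 11572 and lost 11387 to 31995. The ESC-only share of gained was 21.5 to 28.5%, the MEF-only share of lost 13.7 to 22.7%, the promoter share 17.5 to 23.6% of gained and 15.9 to 18.1% of lost, and the neither share 39.0 to 53.7% of gained and 38.6 to 57.8% of lost. The ESC-only difference was -4.26 to 1.78 points, and 1.75 without day 7. No paired analysis was possible because each day of a path is 1 library and no replicate number pairs them.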
